A study of Mus musculus with 15 samples.

Results

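Leukocytes and Kupffer cells, the resident macrophages of the liver, contribute a small set of miRNAs to whole-liver RNA. The miRNAs described here are the array entries named miR-223, miR-142 (or miR-142a), miR-150, miR-146a, miR-146b and miR-155, on either arm. Matching by name found 9 miRNAs of the 696 mouse miRNAs on the array. Livers came from male B6C57/J mice that were 1 year old when the diets began and stayed on them for life. The 5 SD mice ate the AIN-93G standard diet ad libitum, the 5 CR mice received the AIN-93G diet under 40% caloric restriction, and the 5 Met mice ate AIN-93G ad libitum with 0.1% w/w metformin added. Whole liver was profiled with 1 array per mouse, no cells were sorted, and fewer cells of a type cannot be told apart from less RNA per cell.

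miRNAs are short RNAs that guide Argonaute proteins to partly complementary messenger RNAs, mainly through the seed near their 5′ end, and lower the output of those messengers. miR-223-3p is made mainly by myeloid cells such as neutrophils and macrophages, the locus of miR-142 is active across blood cell lineages, and miR-150-5p is a miRNA of mature B and T lymphocytes. miR-146a-5p, miR-146b-5p and miR-155-5p are induced by inflammatory signals. miR-146a-5p targets Traf6 and Irak1 in a feedback loop on NF-kB signaling, while miR-155-5p accompanies the activation of macrophages and lymphocytes. The inducible ones are also made in cells other than leukocytes, so the name of the set describes where these miRNAs are best known and not where they were measured.

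Mature sequences were matched by name in RefSeq (assembly GRCm38.p6) for 8 of the 9 miRNAs, with miR-142-5p and miR-142-3p listed there as miR-142a. miR-150-5p is named only. The 6 that the detection results turn on are printed 5′ to 3′ with the seed, bases 2 to 8, in capitals, because the seeds sort them into families.
mmu-miR-223-3p: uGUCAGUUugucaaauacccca
mmu-miR-142-3p: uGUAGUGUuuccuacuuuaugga
mmu-miR-142-5p: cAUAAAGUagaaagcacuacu
mmu-miR-146a-5p: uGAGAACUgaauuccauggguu
mmu-miR-146b-5p: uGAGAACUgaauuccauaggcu
mmu-miR-155-5p: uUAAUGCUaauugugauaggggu

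miR-146a-5p and miR-146b-5p shared their seed with each other and with no further mature mouse miRNA in the table, and none of the other sequences with a match shared its seed with any entry. From miR-146a-5p to miR-146b-5p, counted from 1 at the 5′ end, the differences were G18A and U21C, and the other 20 of 22 bases were the same. Their loci lie apart. Mature miR-146a-5p is at chr11:43374435-43374456 on the minus strand, in Mir146, which overlaps no other listed gene, and miR-146b-5p is at chr19:46342790-46342811 on the plus strand, in Mir146b, inside the noncoding gene Gm36493. miR-223-3p is at chrX:96242884-96242905 on the plus strand, inside the noncoding gene F630028O10Rik, and miR-155-5p is at chr16:84714143-84714165 on the plus strand, inside its host transcript Mir155hg. miR-142-5p (chr11:87756867-87756887) and miR-142-3p (chr11:87756903-87756925) are the arms of 1 hairpin on the plus strand.

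Levels are given on 2 scales, neither of which allows the level of one miRNA to be set against that of another. The z-score is the natural log of a spot's signal, counted from the array's mean in units of their spread (1 standard deviation), averaged over the spots and probes of a miRNA. The total gene signal is the scanner software's linear, background-subtracted value, which it gives only for miRNAs it calls detected. Per array, the software called 170 to 205 miRNAs detected in SD mice, 151 to 198 in CR mice and 182 to 191 in Met mice, and the lowest 2 counts of all arrays were 151 in CR mouse 3 and 167 in CR mouse 2. The liver miRNA miR-122-5p was detected on all 15 arrays, as the tissue label asks. Slide 1 carried the 5 SD mice with Met mice 1 to 3, and slide 2 the 5 CR mice with Met mice 4 and 5.

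Detection separated the 9 miRNAs before any comparison of diets. miR-146a-5p was detected on 15 of 15 arrays, miR-155-5p and miR-223-3p on 14, miR-142-3p on 13, miR-150-5p on 10 and miR-142-5p on 3. miR-146b-5p, miR-146b-3p and miR-150-3p were detected on none. Across the whole array, 139 of 696 miRNAs were detected on all arrays and 470 on none. Of the near-identical pair printed above, then, the array detected miR-146a-5p in every mouse and miR-146b-5p in no mouse. Each mouse had between 2 and 6 of the 9 detected. The counts in mice 1 to 5 were 6, 5, 5, 3 and 5 in SD, 5, 3, 2, 5 and 5 in CR, and 5, 5, 4, 5 and 6 in Met, so the groups overlapped and CR mice 2 and 3 were low on this count as on that of all miRNAs.

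**Figure D1:**
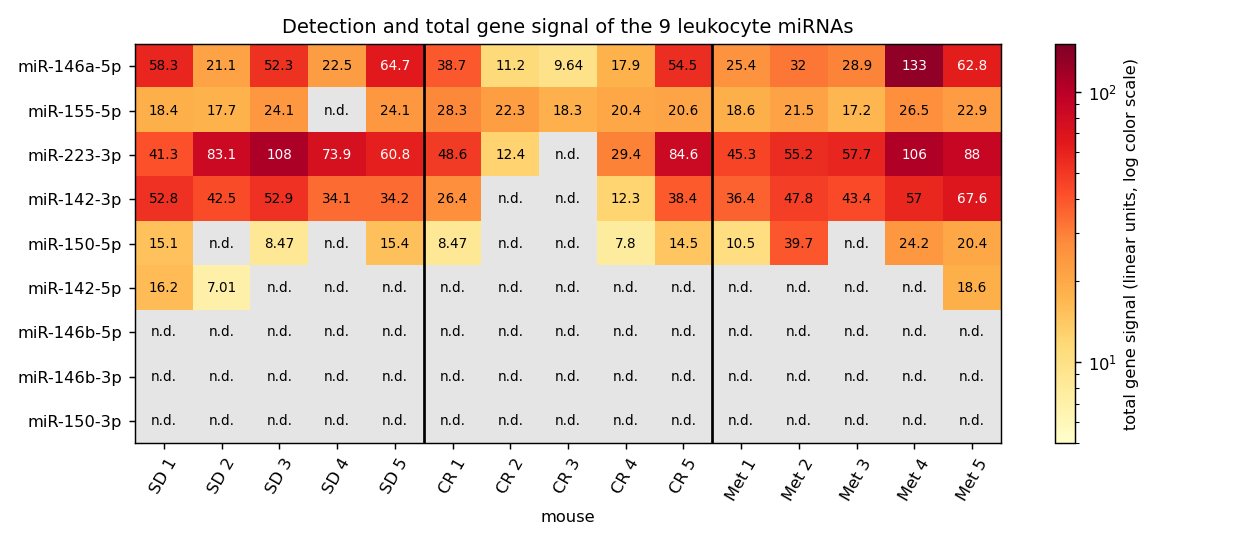
Total gene signal of the 9 leukocyte miRNAs (rows) in each of the 15 mice (columns, grouped by diet), in linear units with a log color scale, where n.d. marks a miRNA that the scanner software did not detect on that array. miR-146a-5p has a value in every mouse, CR mouse 3 has values for only 2 of the 9, and the bottom 3 rows hold no value.

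miR-142-3p, the blood-lineage miRNA, was lower in CR livers than in SD and Met livers on the z-score scale. Its z-scores in mice 1 to 5 were 0.0708, 0.0439, 0.0564, -0.0609 and -0.0332 in SD. They were -0.0951, -0.244, -0.233, -0.127 and -0.0341 in CR, and -0.0413, 0.0214, 0.0289, 0.0562 and 0.147 in Met. CR mouse 5 lay within the range of SD and just above the lowest Met mouse, while the other 4 CR mice lay below every SD and Met mouse. The means ± standard deviation (n = 5) were 0.0154 ± 0.0586 in SD, -0.147 ± 0.0905 in CR and 0.0424 ± 0.0684 in Met. The difference between CR and SD was -0.162 (95% interval -0.254 to -0.0699, limma adjusted p = 0.0159), and that between CR and Met was -0.189 (-0.281 to -0.0969, limma adjusted p = 0.0142). With the slide as a block, the adjusted p against SD was 0.0948 and the call at 0.05 was lost, while that against Met was 0.0172. Total gene signal was 34.1 to 52.9 in SD and 36.4 to 67.6 in Met. In CR it was 26.4, 12.3 and 38.4 in mice 1, 4 and 5, and miR-142-3p was not detected in CR mice 2 and 3. The opposite arm, miR-142-5p, was detected only in SD mice 1 and 2 and in Met mouse 5, with signals of 16.2, 7.01 and 18.6, and was too seldom detected to be tested.

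miR-223-3p, the myeloid miRNA, had the lower mean z-score in CR, with a wide spread between mice. In SD mice 1 to 5 its z-scores were -0.0125, 0.281, 0.337, 0.195 and 0.124. In CR they were 0.046, -0.123, -0.151, -0.0452 and 0.244, and in Met they were 0.0113, 0.0768, 0.0966, 0.33 and 0.228. All 3 groups overlapped, since CR mouse 5 was among the higher mice and SD mouse 1 among the lower ones. The difference between CR and SD was -0.191 (95% interval -0.365 to -0.0166, unadjusted p = 0.0338, limma adjusted p = 0.0872), and that between CR and Met was -0.154 (-0.329 to 0.0197, limma adjusted p = 0.149). Neither passed an adjusted p of 0.05. The call at that limit rested on single mice, because the adjusted p against SD was 0.0159 without CR mouse 5 and 0.0395 without SD mouse 1, and that against Met was 0.0279 without CR mouse 5. Total gene signal ran from 41.3 to 108 in SD and from 45.3 to 106 in Met. In CR it was 48.6, 12.4, 29.4 and 84.6 in mice 1, 2, 4 and 5, and mouse 3 was below detection. The spread within CR thus took in both an undetected level and one above 4 of the 5 SD mice.

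The 2 probes of miR-223-3p moved in the same direction but not by the same amount, with differences of -0.272 and -0.11 between CR and SD. The probes of miR-142-3p gave -0.212 and -0.113, and those of miR-146a-5p gave -0.131 and -0.0619.

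miR-146a-5p, the NF-kB feedback miRNA, passed an adjusted p of 0.05 in none of the 3 comparisons of z-scores without a slide term. Its z-scores were 0.1, -0.0818, 0.0419, -0.107 and 0.152 in SD mice 1 to 5. They were -0.0181, -0.151, -0.16, -0.106 and 0.0568 in CR, and -0.0875, -0.0301, -0.0483, 0.443 and 0.11 in Met. Met mouse 4 stood highest of all 15 mice, with a total gene signal of 133 against at most 64.7 in the other 14. The difference between CR and SD was -0.0966 (95% interval -0.279 to 0.0854, limma adjusted p = 0.415), and that between CR and Met was -0.153 (-0.335 to 0.0288, limma adjusted p = 0.164). Between Met and SD it was 0.0565 (-0.125 to 0.238, limma adjusted p = 0.93), and without Met mouse 4 the sign of this last difference turned. With the slide as a block it met the criteria described below as lower in CR, with limma adjusted p values of 0.0948 against SD and 0.0281 against Met. Both intervals with CR are wide enough to hold differences as large as those measured for miR-142-3p. For miR-146b-5p the z-scores lay between -0.354 and -0.272 in all mice, and for miR-146b-3p between -0.365 and -0.295, which are the values of spots without detected signal.

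miR-155-5p, the miRNA of activated macrophages and lymphocytes, was the only one of the 4 tested with a higher mean in CR, and its values were low on every array. The z-scores in mice 1 to 5 were -0.173, -0.163, -0.146, -0.187 and -0.109 in SD. They were -0.0991, -0.0797, -0.119, -0.136 and -0.17 in CR, and -0.18, -0.148, -0.163, -0.131 and -0.145 in Met. CR mouse 5, the highest CR mouse for miR-142-3p, miR-223-3p and miR-146a-5p, was the lowest in CR for miR-155-5p. The difference was 0.0349 between CR and SD (95% interval -0.00404 to 0.0739, limma adjusted p = 0.156) and 0.0326 for CR against Met (-0.0063 to 0.0716, limma adjusted p = 0.165). Without CR mouse 5 the adjusted p values were 0.0418 and 0.0437. The 470 miRNAs detected on no array had a median difference of 0.0284 for CR against SD and 0.0257 for CR against Met, so the z-score of miR-155-5p moved by 0.00655 and 0.00695 relative to them. Total gene signal was 18.3 to 28.3 in CR, 17.2 to 26.5 in Met and 17.7 to 24.1 in the 4 SD mice with detection, ranges that overlapped almost in full.

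miR-150-5p, the lymphocyte miRNA, was detected in 3 SD, 3 CR and 4 Met mice, which left it outside the comparisons. Where it was detected, total gene signal was 15.1, 8.47 and 15.4 in SD mice 1, 3 and 5. It was 8.47, 7.8 and 14.5 in CR mice 1, 4 and 5, and 10.5, 39.7, 24.2 and 20.4 in Met mice 1, 2, 4 and 5. The 3 highest signals all belonged to Met mice, and Met mouse 3 was below detection. The mean z-scores were -0.227 ± 0.0503 in SD, -0.213 ± 0.0252 in CR and -0.149 ± 0.0904 in Met (± standard deviation, n = 5), and the Met range of -0.25 to -0.0394 took in all CR values and 3 of the 5 SD values. miR-150-3p, the opposite arm, had z-scores of -0.342 to -0.255 and was detected in no mouse.

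**Figure D2:**
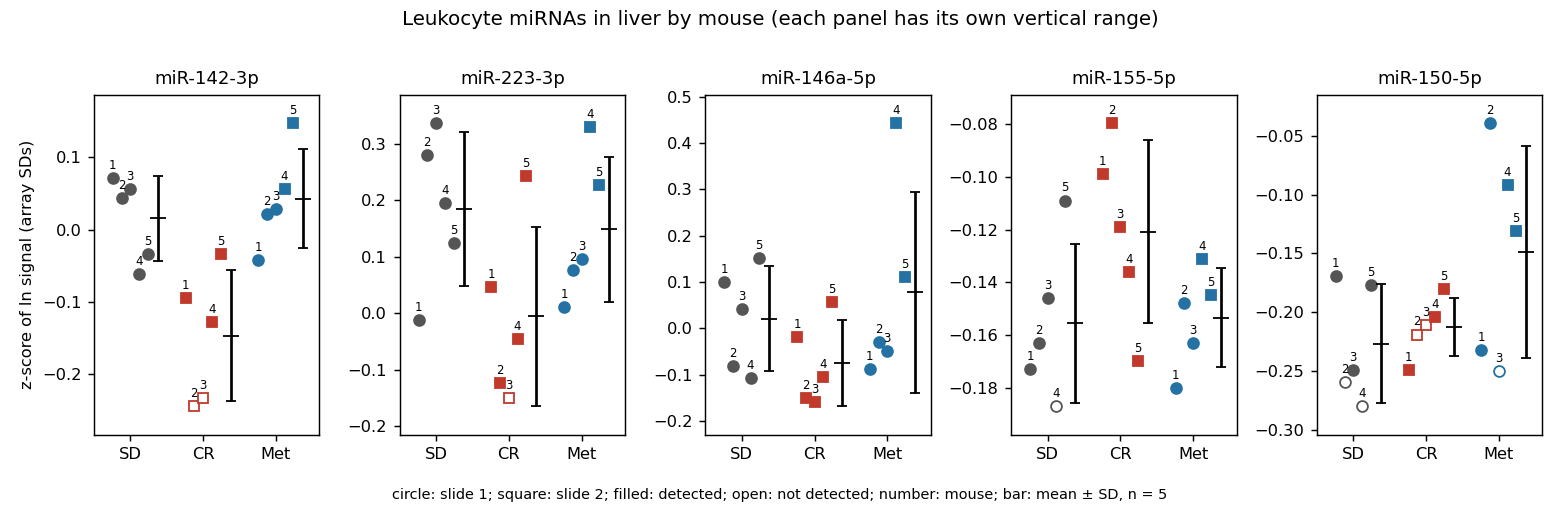
z-scores of 5 leukocyte miRNAs (panels, each with its own vertical range) in the SD, CR and Met mice, in standard deviations of the log signals of an array, with the mean ± standard deviation (n = 5) at the right of each group. CR mice 2 and 3 are lowest for miR-142-3p, miR-223-3p and miR-146a-5p, CR mouse 5 is highest in CR for the same miRNAs, and open symbols mark arrays without detection.

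Of the 9 miRNAs, 4 were detected in every mouse of 1 diet or more and entered the limma fit with 178 miRNAs in all. They were miR-142-3p, miR-146a-5p, miR-155-5p and miR-223-3p, and a miRNA detected everywhere in 1 diet only could enter through that diet. The criteria of the study combine a p of 0.05 or less, an adjusted p of 0.3 or less and an absolute Z ratio of 1.5 or more. The Z ratio sets the difference of mean z-scores against the spread of such differences (1 standard deviation) over all 696 miRNAs. None of the 4 met these criteria in any comparison. Among all tested miRNAs, 31 (17.4%) met them for CR against SD, 2 (1.12%) for Met against SD and 37 (20.8%) for CR against Met. With limma's p left unadjusted and no further limit, 2, 0 and 1 of the 4 reached 0.05 in these comparisons, beside 74, 12 and 80 of all 178.

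The Z ratio limit set the outcome for miR-142-3p, whose Z ratios were -0.975 against SD and -1.22 against Met. The standard deviation of the differences over the array was 0.166 for the first comparison and 0.155 for the second, about the size of the differences of miR-142-3p itself. miR-223-3p, at -1.15 against SD, passed the limit when only the brightest probe of each miRNA was used (Z ratio -1.51, limma adjusted p = 0.0967). The share of all tested miRNAs called with the brightest probe was not counted. Without the Z ratio limit, an adjusted p of 0.05 was reached by 1 of the 4 for CR against SD (30.9% of all tested), 1 for CR against Met (34.3%) and 0 for Met against SD (0.562%). It was miR-142-3p in each case, and with 1 in 4 the share was close to that of all tested miRNAs. The median difference of the 4 for CR against SD was -0.129, beside -0.0161 over all 178, and for CR against Met it was -0.154, beside -0.0292. Both comparisons share the CR arrays.

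Between Met and SD, the comparison of metformin with the standard diet, the 4 miRNAs stayed within the spread between mice. The differences were 0.027 for miR-142-3p (95% interval -0.0652 to 0.119), -0.0363 for miR-223-3p (-0.21 to 0.138) and 0.00227 for miR-155-5p (-0.0367 to 0.0412), with limma adjusted p values of 0.93 to 0.94 for all 4. The median of the 4 was 0.0146, beside 0.00838 over all tested. The interval of miR-142-3p excludes a difference of the size measured between CR and SD in the downward direction, whereas that of miR-223-3p does not.

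**Figure D3:**
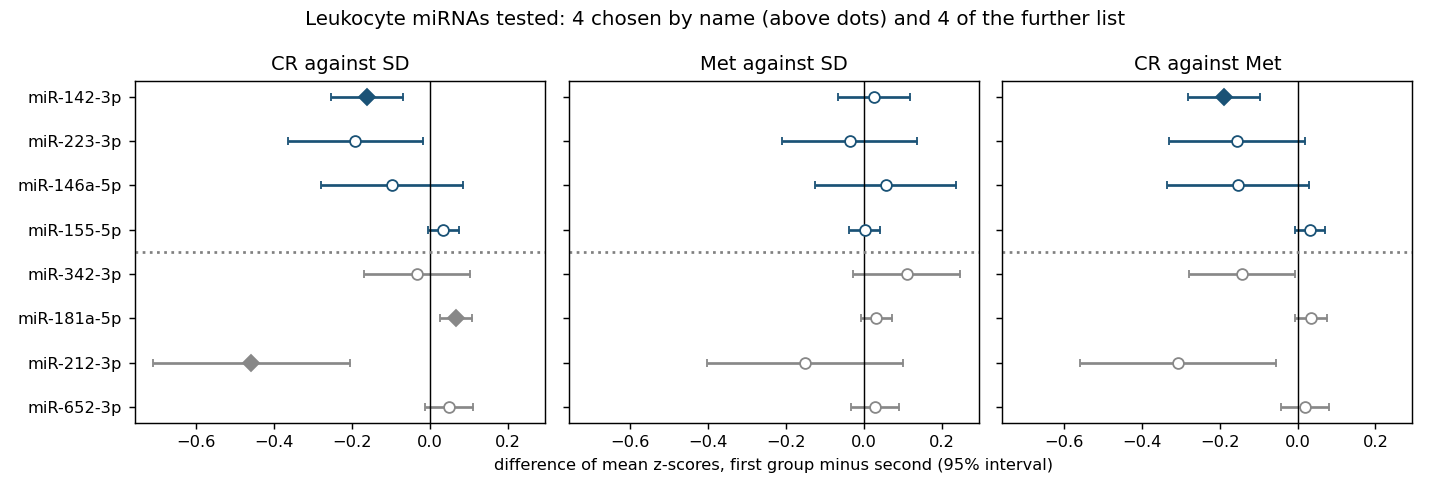
Differences of mean z-scores with 95% intervals from limma (horizontal axis, first group minus second) for the 4 tested leukocyte miRNAs above the dotted line and 4 miRNAs of a further leukocyte list below it. Filled diamonds mark an adjusted p of 0.05 or less, which miR-142-3p reached against SD and Met, miR-181a-5p and miR-212-3p against SD, and none in the middle panel.

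CR mice 2 and 3 carried much of the lower level in CR. In the fit with CR mice 1, 4 and 5 alone, a choice made after the values were seen, the difference of miR-142-3p was -0.101 against SD (limma adjusted p = 0.151) and -0.128 against Met (limma adjusted p = 0.106), so its call was lost. That fit had fewer CR arrays, and the unadjusted limma p of miR-142-3p was 0.0314 against SD and 0.0091 against Met. Its Z ratios were -0.875 and -1.35. The difference of miR-223-3p against SD went from -0.191 to -0.103 (limma adjusted p = 0.474). miR-142-3p kept an adjusted p of 0.05 or less when any single SD, CR or Met mouse was left out, between 0.00527 and 0.0497 against SD and between 0.00357 and 0.0453 against Met. The same 2 mice had the fewest detected miRNAs of all arrays and the lowest z-scores of the hepatocyte miRNA miR-192-5p, 1.23 and 1.36 against 2.43 to 2.91 in the other CR mice and 2.85 to 3.27 in SD and Met. The hepatocyte miRNA miR-122-5p was not low in both, with a z-score of 6.38 in CR mouse 2, the highest in CR, and 6.12 in CR mouse 3, the lowest in CR but within the SD range of 5.77 to 6.36. CR mice 2 and 3 were also the lowest for the red blood cell miRNA miR-451a, with 0.0197 and 0.128 against 1.09 to 2.04 in all other mice. The part of these values in the leukocyte miRNAs was not tested.

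Diet and slide overlapped, as slide 1 held every SD mouse and slide 2 every CR mouse, and the fit with the slide as a block links them through the Met mice alone. In that fit, miR-146a-5p and miR-223-3p met the criteria as lower in CR against SD, with Z ratios of -2.39 and -2.28 (limma adjusted p = 0.0948 and 0.185), beside 9.55% of all tested miRNAs. They also met them against Met, with Z ratios of -2.1 and -1.7 (limma adjusted p = 0.0281 and 0.0798), beside 19.1%. miR-142-3p, at -1.45 and -1.48, stayed just short of the limit, and its adjusted p was 0.0948 against SD, above 0.05, and 0.0172 against Met. Within slide 2, where 5 CR and 2 Met mice can be compared, the differences were -0.352 for miR-146a-5p (limma adjusted p = 0.165), -0.285 for miR-223-3p (0.228) and -0.248 for miR-142-3p (0.137). Within slide 1, with 5 SD and 3 Met mice, the differences between Met and SD were -0.0762, -0.123 and -0.0124 in the same order, each with a limma adjusted p of 0.975. Met mice 4 and 5, on slide 2, had the 2 highest z-scores of their group for miR-142-3p, miR-223-3p and miR-146a-5p, and with 1 slide holding only those 2 Met mice, the slide and these mice cannot be told apart.

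The direction of the differences with CR depended on how arrays were scaled. Scaled to the 75th percentile of detected probes on a log2 scale, the median of all tested miRNAs shifted by 0.37 in CR against SD and 0.305 against Met, and all 4 leukocyte miRNAs had higher means in CR. miR-146a-5p and miR-155-5p then met the criteria against SD as higher, beside 67.4% of all tested miRNAs, and miR-155-5p against Met, beside 65.2%. Of those called, 91.7% were higher in CR against SD, compared with 16.1% on the z-score scale, and over all scalings this share ran from 0% with the 75th percentile of all probes to 95.7% with hepatocyte centering. With arrays centered on the hepatocyte miRNAs miR-122-5p, miR-192-5p and miR-194-5p, the shift of the median was 0.63 and 0.70. On that scale 2 of the 4 met the criteria against SD (77.5% of all tested) and 4 of the 4 against Met (83.7%), all as higher in CR. These log2 scalings move every miRNA of an array by the same amount, so values relative to the median of all tested miRNAs were the same in both. miR-223-3p lay 0.16 below the median between CR and SD, miR-142-3p 0.12 below and miR-146a-5p 0.05 below, while miR-155-5p lay 0.09 above it. The z-score scale gave the same sides of the median, at -0.175, -0.146, -0.0805 and 0.051.

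On the total gene signal, with undetected values set to the lowest scaled level that was detected anywhere, miR-142-3p met the criteria as lower in CR against both groups, with Z ratios of -3.92 and -4.45. miR-155-5p met them as higher against SD, with a Z ratio of 2.52. The shares of all tested miRNAs were 32% and 41% in the comparisons with SD and with Met. Both calls lean on undetected arrays, CR mice 2 and 3 for miR-142-3p and SD mouse 4 for miR-155-5p. miR-223-3p, with CR mouse 3 undetected, had Z ratios of -2.85 and -2.66 and did not meet the criteria (limma adjusted p = 0.089 and 0.145; unadjusted p = 0.0585 and 0.1).

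**Figure D4:**
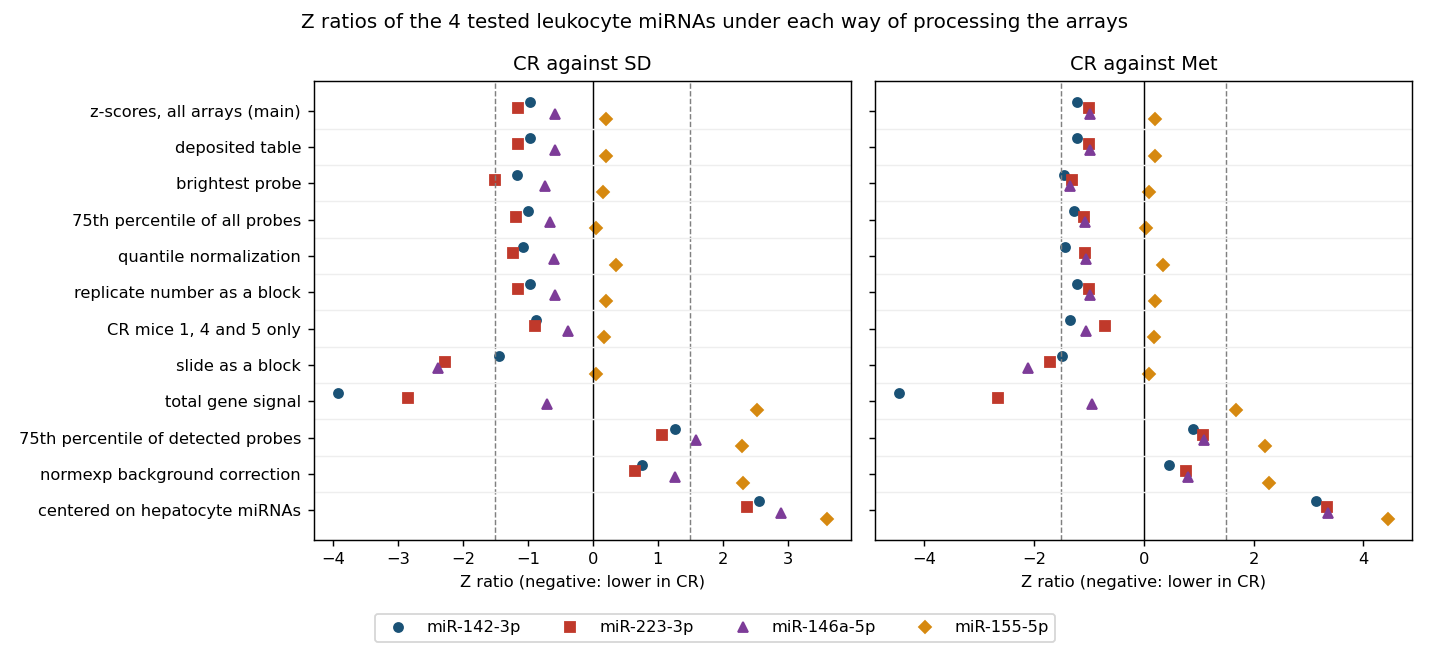
Z ratios (horizontal axis, negative where lower in CR) of the 4 tested leukocyte miRNAs for CR against SD (left) and CR against Met (right) under each way of processing (rows), with dashed lines at the limits of -1.5 and 1.5. The bottom 3 rows, which use 75th percentile scaling of detected probes, normexp background correction or hepatocyte centering, put all 4 above 0, and miR-155-5p is to the right of 0 in every row.

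A further list of 13 miRNAs known from blood cells and macrophages was described beside the set. Of these, 12 were on the array, 8 were detected in no mouse and 4 were tested. Among the undetected were miR-511-5p, whose locus lies in the macrophage mannose receptor gene Mrc1, and miR-147-3p, which activated macrophages make. Lymphocyte-associated miR-181b-5p, miR-181c-5p and miR-181d-5p and also miR-342-5p, miR-132-3p and miR-9-5p were undetected too. One of the 4 tested met the criteria as lower in CR, both against SD and against Met, and none as higher. Of all 178 tested miRNAs, 31 (17.4%) met the criteria for CR against SD and 37 (20.8%) for CR against Met. Those called as lower in CR were 26 and 29. The medians of the 4 tested of this list for CR were 0.00785 against SD and -0.0618 against Met, beside -0.0161 and -0.0292 over all tested.

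The miRNA of this list that met the criteria was miR-212-3p, from a locus induced by CREB signaling and shared with miR-132. From that locus, miR-132-3p was detected in no mouse (z-scores of -0.321 to -0.231), and this contrast was not tested. For miR-212-3p, the software flagged 30% to 95% of spots as well above background in CR mice and 50% to 100% in SD mice. Its z-scores in mice 1 to 5 were 0.732, 0.62, 0.462, 0.574 and 0.164 in SD, 0.112, 0.0166, -0.114, 0.0346 and 0.214 in CR, and 0.0793, 0.553, 0.52, 0.0837 and 0.563 in Met. The difference between CR and SD was -0.458 (95% interval -0.709 to -0.206, Z ratio -2.75, limma adjusted p = 0.0154), and that between CR and Met was -0.307 (-0.559 to -0.0553, Z ratio -1.98, limma adjusted p = 0.0565). SD and CR overlapped only through SD mouse 5 and CR mouse 5. Both calls were kept with 75th percentile scaling of all probes (Z ratios -2.66 and -2.03, limma adjusted p = 0.0166 and 0.0653). Quantile normalization kept them too (Z ratios -2.87 and -2.04, limma adjusted p = 0.0178 and 0.0711). The call was lost with 75th percentile scaling of detected probes and with hepatocyte centering. It was also lost with normexp background correction (Z ratios -1.03 and -0.268, limma adjusted p = 0.256 and 0.787) and with the slide as a block (Z ratios -2.21 and -1.61, limma adjusted p = 0.269 and 0.213). Centering on hepatocyte miRNAs turned both directions, as 75th percentile scaling of detected probes did against Met. Against Met the call was also lost on the total gene signal (limma adjusted p = 0.0992), with CR mice 1, 4 and 5 alone (limma adjusted p = 0.359) and within slide 2 (limma adjusted p = 0.228), where each unadjusted p was above 0.05. The same held without CR mouse 3, with a limma adjusted p of 0.14, or without Met mouse 2, 3 or 5, with 0.133, 0.126 and 0.138.

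miR-181a-5p, a lymphocyte miRNA that tunes T cell receptor signaling, was higher in CR than in SD by 0.0673 (95% interval 0.0272 to 0.107, limma adjusted p = 0.0191), with z-scores of -0.219 to -0.194 in SD and -0.196 to -0.0788 in CR. Its Z ratio of 0.405 was far under the limit of the criteria, and the adjusted p was 0.0501 without CR mouse 2 and 0.134 with CR mice 1, 4 and 5 alone. That call was lost in the fit blocked on slide (limma adjusted p = 0.663, Z ratio 0.124), and also when the 75th percentile over all probes set the scale (limma adjusted p = 0.112). Total gene signal of miR-181a-5p was low, at 10.2 to 11.3 in the 4 SD mice with detection and 9.7 to 19.7 in CR. miRNAs detected on no array had a median difference of 0.0284 between CR and SD. The undetected miR-181b-5p, miR-181c-5p and miR-181d-5p also had higher mean z-scores in CR (-0.247, -0.291 and -0.264) than in SD (-0.301, -0.307 and -0.299). miR-342-3p, made from an intron of Evl in blood cells, differed by -0.0327 between CR and SD (-0.169 to 0.104, limma adjusted p = 0.724). Between CR and Met it differed by -0.143 (-0.279 to -0.0059, limma adjusted p = 0.0945), with Met mice 4 and 5 at 0.35 and 0.357 and all other mice at 0.139 or less. In the fit blocked on slide, miR-342-3p met the criteria as lower in CR, with Z ratios of -1.84 against SD (limma adjusted p = 0.0403) and -1.92 against Met (limma adjusted p = 0.00302). miR-652-3p differed by 0.0484 and 0.0189 in these comparisons, with limma adjusted p values of 0.208 and 0.599.

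Markers of the other liver cells did not all move in the same direction in CR. Total gene signals were not scaled between arrays, so sums over a list also carry differences between whole arrays. A sum follows the brightest miRNAs of its list most. For the hepatocyte list in SD, miR-122-5p alone gave 16200 to 25700. The summed total gene signal of the 9 leukocyte miRNAs, with undetected values as 0, was 131 to 246 in SD, 28 to 213 in CR and 136 to 347 in Met. That of 3 hepatocyte miRNAs was 18800 to 29600 in SD, 10500 to 27700 in CR and 24600 to 29800 in Met, and 2 of the 3 met the criteria as lower in CR against both groups. The third, miR-122-5p, did not meet them, and its mean z-score was higher in CR than in SD by 0.217 (Z ratio 1.31, limma adjusted p = 0.155). The sum of 2 endothelial miRNAs was 620 to 886, 215 to 839 and 665 to 877 in the same order, with 1 of 2 lower in CR against Met by the criteria. The sum of 5 stellate and mesenchymal miRNAs was 171 to 229, 60.6 to 336 and 178 to 251, and that of 2 erythroid miRNAs was 265 to 726, 33.8 to 788 and 291 to 621, with none meeting the criteria. Of the 5 stellate and mesenchymal miRNAs, 2 had higher and 3 lower mean z-scores in CR, both against SD and against Met. Of 5 cholangiocyte and epithelial miRNAs, 3 were detected in no mouse and the sums were 8.05 to 18.9, 0 to 40.4 and 0 to 27.4. The 1 that was tested had a higher mean z-score in CR than in SD and Met. The lowest CR sums of every list fell below the lowest SD sums, the leukocyte list among them, and their part in one another was not tested.

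Across the 15 arrays, the tested miRNA whose z-scores ran most nearly with those of miR-223-3p was miR-199a-3p, a miRNA of stellate and other mesenchymal cells (r = 0.879), followed by its opposite arm miR-199a-5p (r = 0.876). For miR-142-3p they were miR-101a-3p (0.909) and miR-15a-5p (0.896). For miR-146a-5p they were miR-342-3p (0.787), of the blood cell list, and miR-1892 (0.765), and for miR-155-5p they were miR-99b-3p (0.856) and miR-193a-5p (0.809). Each pair was the closest 2 of the 177 miRNAs compared. None of these partners was another of the 4. Among the 4 themselves, r was 0.732 between miR-142-3p and miR-223-3p, 0.59 between miR-142-3p and miR-146a-5p and 0.587 between miR-146a-5p and miR-223-3p. It was -0.535 between miR-142-3p and miR-155-5p, -0.377 between miR-155-5p and miR-223-3p and 0.0182 between miR-146a-5p and miR-155-5p. These values describe arrays that share scaling, slides and the low CR mice 2 and 3. Without those 2 mice, over 13 arrays, r fell to 0.494 between miR-142-3p and miR-223-3p and was -0.176 between miR-142-3p and miR-155-5p. All the closest partners named above kept an r of 0.694 to 0.861, with 0.817 for miR-223-3p and miR-199a-3p. Those partners were picked as the highest of 177 over all 15 arrays, whereas the pairs among the 4 were not picked by their r.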

How the data were processed

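Cy3-labeled liver RNA was hybridized to 1-color Agilent mouse miRNA arrays, 1 per mouse. The authors deposited scanner output from Feature Extraction 11.5.1.1, with the intensity of each spot and its local background on a linear scale and without normalization between arrays, and flags of the software (scored 0 or 1) for detection. They also deposited a score per spot, which matched z-scores of the natural log signal, without background subtraction, to within 0.0005. Annotation in the deposited output refers to another build than the RefSeq table used for sequences and loci.

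z-scores were recomputed over all spots. Outlier spots were dropped, and the rest were averaged by probe and then by miRNA. The 178 of 696 miRNAs that every array of some group detected were compared in 1 limma 3.58.1 fit (R 4.3.3) over 15 arrays with a mean-variance trend and Benjamini-Hochberg adjustment. Limits on p, adjusted p and Z ratio were those of the study's methods, whose pairwise z-test was an alternative. The fit was run on simulated arrays with planted changes and independent noise. They held no slide effect and no low arrays, so they do not bear on those features of the data. Precision is limited by the 5 arrays per group. Labels number the mice within groups and name no shared litter, batch or day. Python 3.11.15, numpy 2.4.6, pandas 2.3.3 and matplotlib 3.10.9 were used for tables and plots. Alternatives were other scalings (normexp with an offset of 50 among them), filters, the slide or replicate number as a block and leaving out mice. Named were all members, the tested miRNAs of the further blood cell list, the markers miR-122-5p, miR-192-5p, miR-126-3p, miR-199a-3p and miR-451a where a result needed them, and the 2 closest miRNAs of each tested member. The miRNAs of the set and the lists were chosen with earlier results of these data known.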

Additional observations from a re-analysis of the deposited data

How the results depend on the processing

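No leukocyte miRNA met the criteria between CR and SD in the z-score fit, and none did with 75th percentile scaling of all probes, quantile normalization, the deposited table, no filter, detection on all arrays, the methods' z-test, the replicate block (0), leave-one-out fits (0 to 0) or CR mice 1, 4 and 5 only. The number was 2 with 75th percentile scaling of detected probes (67.4% of all tested miRNAs) or hepatocyte centering (77.5%). It was also 2 with total gene signal (32%) or the slide as a block (9.55%). It was 1 with normexp (107 of all 178) or an adjusted p of 0.05 without a Z ratio limit (30.9%). It was also 1 with the brightest probe, for which the share of all tested miRNAs was not counted. Between CR and Met the number was 4 with hepatocyte centering (83.7%) and 2 with the slide as a block (19.1%) or slide 2 only (6.74%). It was 1 with 75th percentile scaling of detected probes (65.2%) or normexp (108 of all 178). The same held for total gene signal (41%) and an adjusted p of 0.05 alone (34.3%). It was 0 otherwise, leave-one-out fits included (0 to 0). Between Met and SD it was 0 under every alternative (leave-one-out 0 to 0). With the replicate block, the difference between CR and SD stayed -0.162 for miR-142-3p (limma adjusted p = 0.0312), and no call of a tested leukocyte miRNA changed. Replicate numbers gave no sign of pairing, since the share of same-numbered pairs that correlated above 0.1 was 1 of 5 for CR with SD, 2 of 5 for Met with SD and 1 of 5 for CR with Met. With 5 pairs per comparison, this check cannot exclude pairing. The test of miR-223-3p relative to miR-150-5p within arrays was not run, because miR-150-5p was not detected on all arrays of any group.

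Of 572 Z ratios of the 8 tested leukocyte miRNAs under alternatives, 474 kept their direction and side of the criteria. In an unchanged direction, 12 lost the call (all of miR-212-3p) and 32 gained one, while 54 turned. A Z ratio that turned was counted only as turned, also where a call was lost or gained with it. Between CR and SD, Z ratios turned with 75th percentile scaling of detected probes to 1.26 for miR-142-3p, 1.59 for miR-146a-5p, 1.07 for miR-223-3p and 1.89 for miR-342-3p. They turned with hepatocyte centering to 2.56, 2.89, 2.37 and 3.19 for the same miRNAs and 0.891 for miR-212-3p, and with normexp to 0.764, 1.26, 0.651 and 1.73. miR-342-3p also turned with quantile normalization (0.0529) and total gene signal (0.454), and miR-652-3p with the slide as a block (-0.2). Between CR and Met they turned, for miR-142-3p, miR-146a-5p, miR-223-3p and miR-342-3p, to 0.893, 1.09, 1.08 and 1.1 with 75th percentile scaling of detected probes, to 3.14, 3.35, 3.33 and 3.36 with hepatocyte centering, and to 0.458, 0.81, 0.767 and 0.802 with normexp. miR-212-3p turned to 0.128 with the first and 2.38 with the second, and miR-652-3p to -0.0878 with 75th percentile scaling of all probes and -0.189 with the slide as a block or slide 2 only.

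Between Met and SD, where no Z ratio of these miRNAs was called, hepatocyte centering turned miR-142-3p (-0.626), miR-146a-5p (-0.192), miR-155-5p (-0.956), miR-181a-5p (-0.464) and miR-652-3p (-0.584). The slide as a block or slide 1 only turned miR-142-3p (-0.232), miR-146a-5p (-1.43), miR-155-5p (-0.151), miR-342-3p (-0.172) and miR-652-3p (-0.0801), and 75th percentile scaling of detected probes turned miR-223-3p (0.326). Leaving out 1 mouse turned miR-146a-5p (-0.631 without Met mouse 4), miR-155-5p (-0.0337 and -0.0922 without SD mouse 1 or 4 and -0.0588 without Met mouse 4) and miR-223-3p (0.0272 without SD mouse 3). Over all leave-one-out fits these ran from -0.631 to 1.58, from -0.0922 to 0.176 and from -1.47 to 0.0272. The cause was not tested. Signals near background, 3 undetected miRNAs of 9 and 5 mice per group limit what could be seen, and the alternatives with CR mice 1, 4 and 5 or 1 slide only were chosen after seeing the data.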
